A study of Mus musculus with 6 samples.

Results

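The histone deacetylases analysed here are 10 zinc-dependent enzymes of the mouse, encoded by Hdac1, Hdac2, Hdac3 and Hdac8 of class I, Hdac4, Hdac5 and Hdac7 of class IIa, Hdac6 and Hdac10 of class IIb, and Hdac11, which is placed in a class IV of its own. Every probe set, a group of short probes read out as 1 value, that the platform annotation gives to 1 of these symbols alone was taken. That gave 17 probe sets for the 10 genes, of 45037 probe sets on the array apart from controls, and 16 of them were bright enough to be tested among 27022. The cells were AtT-20, an established line from a mouse tumour of the pituitary's corticotrophs, whose product is pro-opiomelanocortin, the precursor of corticotropin. In the siDNMT1 group 20 nM siRNA directed at Dnmt1, the maintenance DNA methyltransferase, was given repeatedly up to day 8. In the siNT group 20 nM of a non-targeting siRNA was given on the same schedule. The work was done in 3 independent rounds, called repeats 1, 2 and 3, each with 1 array per group, so the 6 arrays fall into same-numbered pairs. Every sample is the same cell line, so the spread shown is that between rounds of treatment, and signals come from bulk RNA, in which fewer cells of a kind and less RNA per cell cannot be told apart.

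Histone deacetylases take acetyl groups off lysines of histones and other proteins, and in chromatin this goes with a closed, less transcribed state. Hdac1 and Hdac2 work inside the Sin3, NuRD and CoREST complexes, and Hdac3 inside the NCoR complex. Class IIa enzymes have little catalytic activity of their own, bind MEF2 factors and leave the nucleus when kinases mark them for 14-3-3 proteins. Dnmt1 is known to bind Hdac1 and Hdac2, and methyl-CpG binding proteins bring deacetylase complexes to methylated DNA. In corticotroph cells Hdac2 is known to take part in the repression of Pomc by glucocorticoids. The comparison addresses whether transcripts of these enzymes differ when Dnmt1 is reduced.

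Promoter sequence is shown because Dnmt1 acts on the C of CG pairs and the members differ in how many they carry just before their start. RefSeq start sites on assembly GRCm38.p6 matched 7 of the 10 genes, with 10 windows in all. Hdac3 was not searched, since member windows on its chromosome were left out, and Hdac1 and Hdac10 had no matching window. Of the windows, 3 are printed: Hdac2, which has the most CG pairs, Hdac8, one of the poorest, and Hdac11. The brighter Hdac11 probe set had the largest difference of the tested member probe sets, while the dimmer one was at -0.04. Each printed sequence is the 250 bases before the start, 5′ to 3′ on the gene's strand, with every CG in capitals.
Hdac2 (chr10:36974294-36974543, plus strand): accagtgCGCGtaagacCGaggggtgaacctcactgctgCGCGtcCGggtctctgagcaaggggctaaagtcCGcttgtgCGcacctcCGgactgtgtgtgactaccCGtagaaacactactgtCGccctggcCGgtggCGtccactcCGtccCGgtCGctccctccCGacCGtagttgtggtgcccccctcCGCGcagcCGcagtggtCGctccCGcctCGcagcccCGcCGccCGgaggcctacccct
Hdac8 (chrX:102505159-102505408, minus strand): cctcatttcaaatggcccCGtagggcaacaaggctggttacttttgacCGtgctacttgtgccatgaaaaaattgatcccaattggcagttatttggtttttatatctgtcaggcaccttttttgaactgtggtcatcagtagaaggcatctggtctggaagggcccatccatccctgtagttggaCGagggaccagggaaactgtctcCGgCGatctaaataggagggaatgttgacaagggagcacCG
Hdac11 (chr6:91156565-91156814, plus strand): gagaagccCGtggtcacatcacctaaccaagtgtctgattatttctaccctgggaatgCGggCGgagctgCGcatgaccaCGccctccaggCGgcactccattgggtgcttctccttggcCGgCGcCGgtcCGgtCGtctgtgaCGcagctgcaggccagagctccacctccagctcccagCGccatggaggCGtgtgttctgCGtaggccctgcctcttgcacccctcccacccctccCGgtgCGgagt

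The Hdac2 window holds 27 CG pairs, Hdac11 holds 17 and Hdac8 holds 6, and the median of all 32851 mouse windows is 6. As many as in the Hdac2 window or more stand in 8.56% of all windows, and for Hdac11 the share is 23.5%. The Hdac4 window holds 23, Hdac6 17 and Hdac5 12, and the 4 alternative starts of Hdac7 have 5, 6, 21 and 25. GGGCGG, the core of the GC box, searched on both strands, stands in 6 of the 10 member windows and in 32.7% of all windows. No methylation was measured here, so these counts describe the sequence and not its state.

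Scaled signal is the deposited intensity after each array was brought to the same median log2 value. Differences are siDNMT1 minus siNT on the scale of log2(scaled signal + 5.29), and called means a limma p under 0.05 adjusted by Benjamini-Hochberg over the 27022 tested probe sets. Signals of different probe sets depend on their probes, so no level of 1 probe set is ranked against that of another. Dnmt1 itself, on its brightest probe set, had 214, 142 and 301 in siDNMT1 arrays 1, 2 and 3, against 541, 701 and 619 in siNT arrays. The groups did not overlap, and Dnmt1 fell in the paired limma fit, which uses the repeat number as a block (difference -1.54, paired SE 0.20, adjusted p = 0.0211). Without the block its limma adjusted p was 0.151. Summed signals of 6 corticotroph markers were 8639 to 13604 in siDNMT1 arrays and 10043 to 13657 in siNT arrays, with Pomc the brightest. Summed signals of 5 leukocyte and endothelial markers, all dim, were 98.1 to 104 in siDNMT1 arrays and 78.7 to 88.5 in siNT arrays. Those sums did not overlap, although 3 of the 5 markers, Ptprc, Aif1 and Pecam1, were below the brightness limit, and their part in the results was not tested. Cd68 was at 0.28 (SE 0.27) and Cdh5 at 0.16 (SE 0.31). Of the 3 dim ones, Ptprc was at -0.52, Aif1 at 0.34 and Pecam1 at 0.52.

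Sums of 5 fibroblast markers were 141 to 177 in siDNMT1 arrays and 121 to 151 in siNT arrays, with Col3a1 below the brightness limit. Among them Pdgfra, a growth factor receptor gene, had 30.7, 25.3 and 46.9 in siDNMT1 arrays against 5.57, 6.77 and 26.8 in siNT arrays. It was higher in 3 of 3 repeats with overlapping groups. The difference was 1.26 (SE 0.47, 95% interval 0.22 to 2.30), with a limma adjusted p of 0.435 with the block and 0.9997 without it. Pdgfra passed the brightness limit only through its siDNMT1 arrays, with means of 34.3 in siDNMT1 cells and 13.1 in siNT cells. Its other probe sets, both below the limit, were at 0.08 and -0.55, while Dcn was at 0.29 (SE 0.34) and Col1a2 at 0.05 (SE 0.21). Col1a1 was at -0.04 (SE 0.40), and Col3a1, not tested, at -0.66. The part of these markers in the results was not tested. For 6 markers of other pituitary cells the sums were 116 to 195 in siDNMT1 arrays and 114 to 219 in siNT arrays, with Cga and Fshb below the brightness limit. Prl was at -0.91 (SE 0.45), Gh at 0.44 (SE 0.32) and Lhb at -0.05 (SE 0.23), and none was called. Prl passed the brightness limit only through its siNT arrays, with means of 13.8 in siDNMT1 cells and 30.1 in siNT cells.

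No histone deacetylase transcript was called, with or without the repeat number in the fit. Most member genes had slightly lower values in siDNMT1 cells, 7 lower and 3 higher on their brightest probe sets, with a median difference of -0.15. Of the 3 higher, Hdac8 passed the brightness limit only through its siDNMT1 arrays. Over all 13477 tested genes 8220 were lower and 5257 higher, with a median of -0.06, so lower values were in excess over the array too under this scaling. The median over all tested probe sets, -0.06 here, turned to 0.002 when a common trimmed mean set the scale and was -0.006 after quantile normalisation. The members' median was -0.09 and -0.08 in these settings. Hdac11 stood lowest at -0.59 (SE 0.24), and the other 9 genes lay between -0.20 and 0.16. By class, 2 of 4 class I genes were lower, 3 of 3 class IIa genes, 1 of 2 class IIb genes and the single class IV gene.

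**Figure D1:**
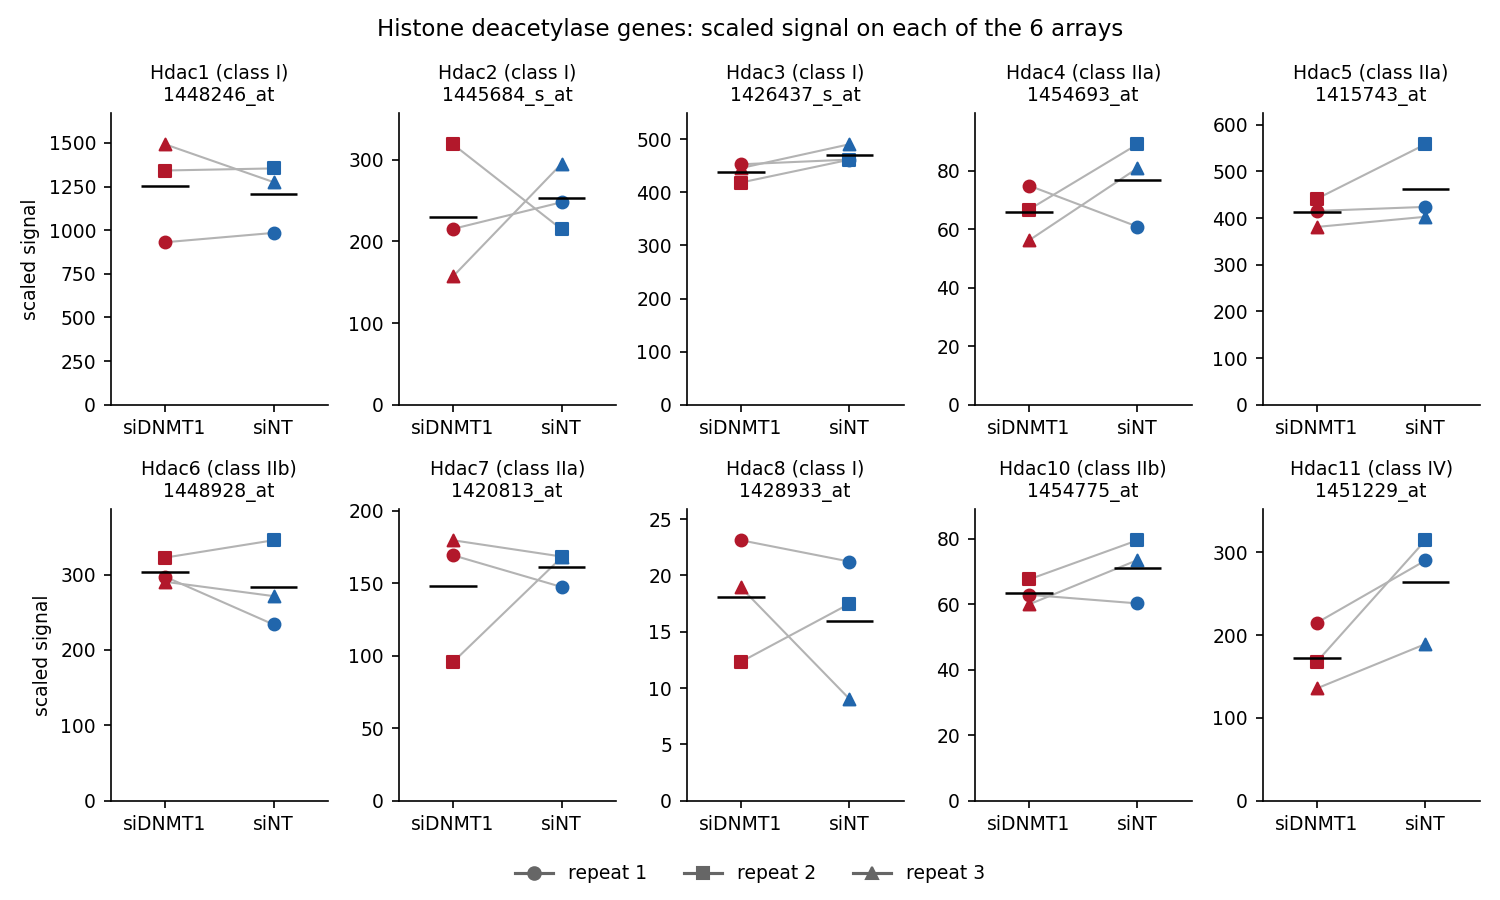
Scaled signal (vertical axes, from 0) of the brightest probe set of each of the 10 genes, with siDNMT1 arrays in red at the left and siNT arrays in blue at the right of each panel. Symbols mark repeats 1, 2 and 3, grey lines join arrays of the same repeat, and black bars are group means. For Hdac11 the siDNMT1 end is the lower one on all 3 lines, whereas the lines of Hdac2 cross.

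The member counts can be set against the shares over the array as a whole. The limma fit without the block called 0 of 16 member probe sets, against 0% of the whole array. With the block, 0 of 16 were called, against 0.0851% of the whole array. At an unadjusted p under 0.05 there was 1 member probe set in each fit, that of Hdac11, against 7.83% of the array with the block and 3.79% without it. The siDNMT1 arrays all lay below the siNT arrays for 1 of 16 member probe sets and 5.78% of all. They all lay above for 0 of 16 and 2.96% of all. The siDNMT1 value was lower in 3 of 3 repeats for 3 of 16 member probe sets and 19.2% of all, and higher in 3 of 3 repeats for 0 of 16 and 10.1% of all. None of these member shares stood far from its background.

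Hdac11, the class IV enzyme, which also removes long fatty acyl groups from proteins, had the smallest p of the family. Its brighter probe set, 1451229_at, had scaled signals of 215, 168 and 136 in siDNMT1 arrays 1, 2 and 3, against 290.4, 315 and 189 in siNT arrays. Each siDNMT1 array was below its paired siNT array, but siDNMT1 array 1 was above siNT array 3, so the groups overlapped. The siDNMT1 signal was 74.1%, 53.4% and 71.7% of siNT in repeats 1, 2 and 3. Means were 173 ± 39.9 in siDNMT1 cells and 265 ± 66.5 in siNT cells (SD, n = 3 each), a difference of -0.59 with a 95% interval of -1.11 to -0.07, or of -0.93 to -0.25 in the paired fit. By limma the adjusted p was 0.338 with the block and 0.9997 without it, so Hdac11 was not called.

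The other Hdac11 probe set, 1454803_a_at, did not share this pattern. It had 135, 188 and 143 in siDNMT1 arrays against 161, 158 and 154 in siNT arrays, with repeat 2 going the other way. Its difference was -0.04 (SE 0.19), with a 95% interval of -0.45 to 0.38. To ask whether the 2 probe sets changed unequally, the log2 value of 1454803_a_at was taken from that of 1451229_at on each array. The result was 0.65, -0.16 and -0.08 in siDNMT1 arrays and 0.83, 0.97 and 0.29 in siNT arrays, which overlap. The group means were 0.14 in siDNMT1 cells and 0.70 in siNT cells, a difference of -0.55. Its exact two-sided permutation p was 0.2, where 3 arrays against 3 cannot give less than 0.1. The permutation did not use the pairing by repeat, and the siDNMT1 value was the lower one in every repeat. The contrast of the 2 probe sets was computed after their values were seen, and which transcripts each one reads was not analysed here.

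Over the 6 arrays the log2 values of 1451229_at ran closest to those of Prkaa2, encoding a catalytic subunit of AMP-activated kinase (Pearson r = 0.997), Ids, a lysosomal sulfatase gene (r = 0.994), and Prepl, a peptidase-like gene (r = 0.991). These are the 3 highest of all tested probe sets of single genes, and the 6 arrays share repeats and scaling, so the values are descriptive. Prepl had 104, 83.7 and 77.5 in siDNMT1 arrays against 131, 145 and 98.5 in siNT arrays. Ids had 339, 269 and 232 in siDNMT1 arrays against 415, 471 and 288 in siNT arrays. Prkaa2 was dim, at 21.2, 10.01 and 4.50 in siDNMT1 arrays against 41.0, 48.1 and 16.2 in siNT arrays. It passed the brightness limit only through its siNT arrays, with means of 11.9 in siDNMT1 cells and 35.1 in siNT cells. In all 3 genes, as in Hdac11, siNT array 3 was the lowest siNT array and siDNMT1 was lower in every repeat. The genes were picked for likeness to Hdac11 over these same arrays, so the shared order follows from the choice.

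Class I genes showed no shared direction. Hdac1, a catalytic subunit of Sin3, NuRD and CoREST, had 931, 1342 and 1493 in siDNMT1 arrays against 984, 1354 and 1276 in siNT arrays. This probe set differed more between repeats than between siRNAs, with repeat 1 low in both groups. Its difference was 0.04 (SE 0.20), with a 95% interval of -0.39 to 0.48, narrowing to -0.19 to 0.28 in the paired fit. Of its sum of squares over the 6 arrays, 92.3% lay between repeats and 0.78% between the siRNAs.

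Hdac2, the close relative of Hdac1 in the same complexes, had the widest spread of per-repeat differences among the brightest probe sets of the 10 genes. Its brightest probe set, 1445684_s_at, had 215, 319 and 157 in siDNMT1 arrays against 248, 215 and 295 in siNT arrays. The siDNMT1 signal was 86.8% of siNT in repeat 1, 148% in repeat 2 and 53.2% in repeat 3. The next probe set, 1449080_at, had 93.7, 172 and 78.5 in siDNMT1 arrays against 96.2, 106 and 119 in siNT arrays. Both were thus higher in siDNMT1 cells in repeat 2 and lower in repeat 3. The dimmest, 1439704_at, had 31.6, 24.5 and 22.04 in siDNMT1 arrays against 29.4, 40.5 and 23.3 in siNT arrays, with the opposite direction in repeat 2. Differences were -0.18 (SE 0.25), 0.02 (SE 0.27) and -0.20 (SE 0.31) in the same order, and all 3 intervals included 0.

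Hdac3, the catalytic subunit of NCoR, was the 1 member whose groups did not overlap. Its probe set had 453, 419 and 446 in siDNMT1 arrays against 462, 462 and 491 in siNT arrays. Every siDNMT1 array was below every siNT array, by a small margin, and the means were 439 ± 18.1 in siDNMT1 cells and 471 ± 16.7 in siNT cells (SD, n = 3 each). The difference was -0.10 (SE 0.15, 95% interval -0.42 to 0.22), with a limma adjusted p of 0.876 with the block and 0.9997 without it. The separation was lost under each of the other scalings, where the difference was -0.04 with a common trimmed mean, -0.03 with quantile normalisation and -0.07 without scaling.

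Hdac8, a class I enzyme known to deacetylate the cohesin subunit Smc3, was close to the brightness limit of 16.8. It passed that limit only through its siDNMT1 arrays, with means of 18.1 in siDNMT1 cells and 15.9 in siNT cells. It had 23.1, 12.3 and 18.9 in siDNMT1 arrays against 21.2, 17.5 and 9.03 in siNT arrays. Each group held high and low arrays, and the difference of 0.16 (SE 0.43) had the widest interval of the family, -0.79 to 1.11. That interval includes 1, a factor of 2 higher in siDNMT1 cells.

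All 3 class IIa genes had lower values on their brightest probe sets, within the spread between arrays. Hdac4 had 74.9, 66.7 and 56.1 on 1454693_at in siDNMT1 arrays against 60.9, 89.0 and 80.8 in siNT arrays, lower in repeats 2 and 3 and higher in repeat 1. Its second probe set, 1447566_at, ran the other way, with 50.4, 79.5 and 59.6 in siDNMT1 arrays against 26.3, 43.5 and 62.7 in siNT arrays. The siDNMT1 signal there was 191% and 183% of siNT in repeats 1 and 2 and 94.9% in repeat 3. Differences were -0.20 (SE 0.22) for 1454693_at and 0.51 (SE 0.30) for 1447566_at, which had a paired limma adjusted p of 0.653. The dimmest Hdac4 probe set, 1436758_at, had 34.7, 14.6 and 41.4 in siDNMT1 arrays against 29.4, 33.4 and 24.1 in siNT arrays, a difference of -0.03 (SE 0.36). The direction for Hdac4 therefore depended on the probe set.

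Hdac5, a class IIa gene like Hdac4, had 415, 441 and 381 in siDNMT1 arrays against 424, 558 and 403 in siNT arrays. It was lower in 3 of 3 repeats, mostly in repeat 2 at 79.1% of siNT, against 97.9% and 94.6% in repeats 1 and 3. The difference was -0.15 (SE 0.17, 95% interval -0.53 to 0.23). Hdac7 had 169, 95.5 and 179.7 on 1420813_at in siDNMT1 arrays against 147, 168 and 168 in siNT arrays. Its lower mean rested on siDNMT1 array 2 alone, since the siDNMT1 value was higher in repeats 1 and 3, and without that array the difference was 0.11. With all arrays it was -0.17 (SE 0.24). On the dimmer probe set 1420812_at Hdac7 had 116, 86.8 and 75.7 in siDNMT1 arrays against 87.6, 109 and 73.0 in siNT arrays, a difference of 0.04 (SE 0.23). Hdac9, the remaining class IIa gene and no member of the set, was below the brightness limit on both of its probe sets, with signals of 2.12 to 11.8 in siDNMT1 arrays and 1.29 to 3.46 in siNT arrays, and was not tested.

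The class IIb genes went in opposite directions by small amounts. Hdac6, the mainly cytoplasmic deacetylase of tubulin, had 297, 323 and 291 in siDNMT1 arrays against 234, 346 and 272 in siNT arrays. All siDNMT1 values lay inside the siNT range, and the difference was 0.11 (SE 0.18, 95% interval -0.29 to 0.51). After quantile normalisation all siDNMT1 values lay above all siNT values, with a difference of 0.19, and Hdac6 was still not called. Hdac10, known to act on polyamines, had 62.8, 67.5 and 59.9 on 1454775_at in siDNMT1 arrays against 60.2, 79.5 and 73.4 in siNT arrays. It was lower in repeats 2 and 3, and the difference was -0.15 (SE 0.21, 95% interval -0.60 to 0.31). Its second probe set, 1441832_at, was the 1 member probe set left untested, with 0.40 to 1.15 in siDNMT1 arrays and 0.50 to 3.19 in siNT arrays.

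**Figure D2:**
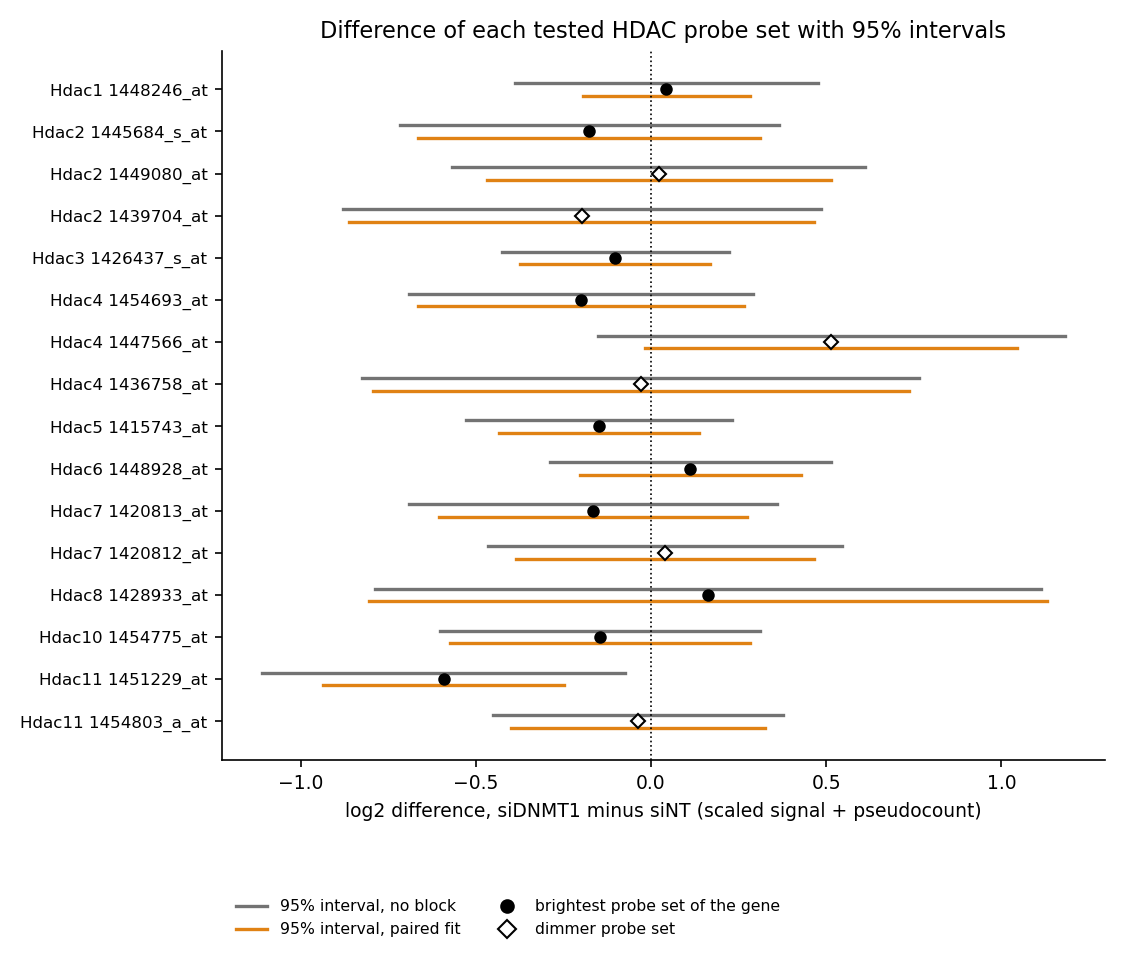
Log2 difference, siDNMT1 minus siNT (horizontal axis), of the 16 tested probe sets, with 95% intervals from the limma fit without the block in grey and from the paired fit in orange. Filled circles are the brightest probe set of a gene and open diamonds its dimmer ones. Both intervals include 0 for every probe set except Hdac11 1451229_at, whose interval is -1.11 to -0.07 without the block.

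The width of the intervals shows how closely each difference was estimated, while calls rest on the adjusted p. Without the block Dnmt1 itself, at -1.54, was not called (limma adjusted p = 0.151). On the brightest probe sets, without the block, the 95% interval lay wholly between -1 and 1 for 8 of 10 genes. That is within a factor of 2 either way, and the exceptions were Hdac8 and Hdac11. In the paired fit the interval lay there for 9 of 10, the exception being Hdac8. Over all tested member probe sets the counts were 13 of 16 without the block and 14 of 16 in the paired fit. The second Hdac4 probe set, 1447566_at, passed 1 in both, at -0.15 to 1.18 and -0.02 to 1.05. These counts were made after the values were seen, and the intervals are not adjusted for the number of probe sets. Repeat and siRNA can be set beside each other as shares of each gene's sum of squares over the 6 arrays. For the 10 members the median share was 44.7% between repeats and 14.2% between siRNAs, against 50.5% and 11.5% over all tested genes. The median member difference was 0.01 in repeat 1, -0.28 in repeat 2 and -0.11 in repeat 3, while the medians of all genes were 0.02, -0.13 and -0.07. Members were lower in 5 of 10 cases in repeat 1, 9 of 10 in repeat 2 and 6 of 10 in repeat 3.

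**Figure D3:**
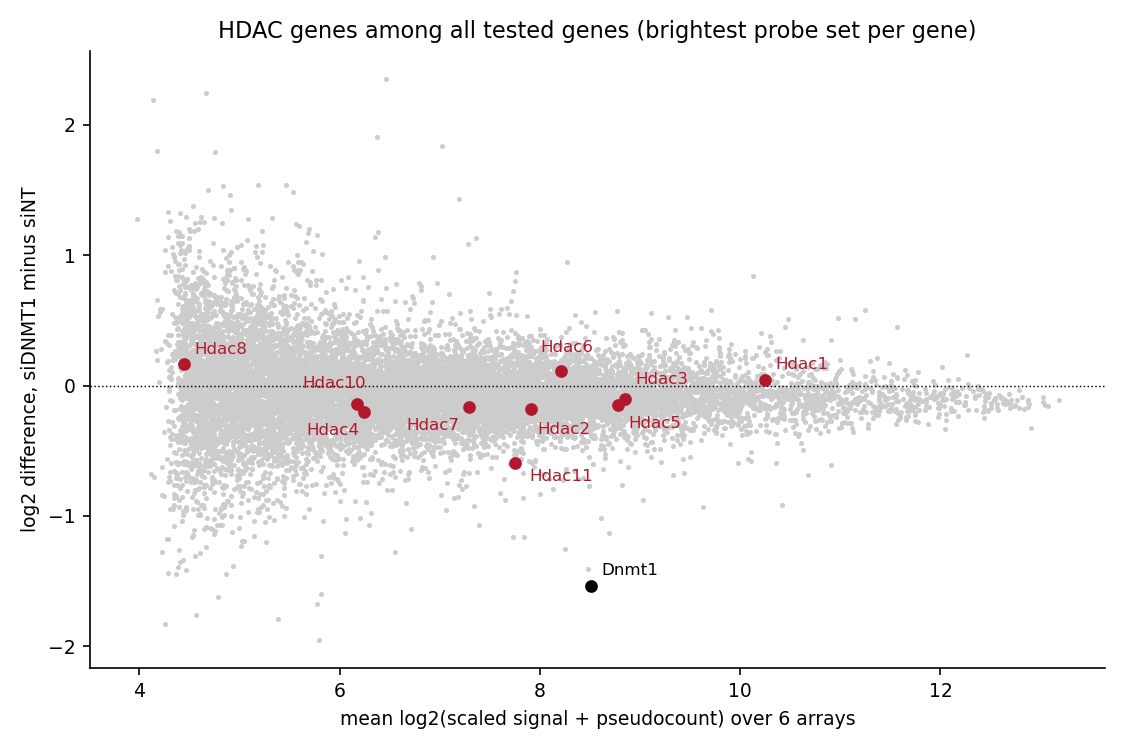
Log2 difference, siDNMT1 minus siNT (vertical axis), against the mean log2 value over the 6 arrays (horizontal axis), for the 13477 tested genes in grey, the 10 histone deacetylase genes in red and Dnmt1 in black. The members other than Hdac11 sit between -0.20 and 0.16 inside the cloud, and Hdac11 lies lower at -0.59. Dnmt1 lies at -1.54, and the lowest of all tested genes is at -1.95.

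The protein partners of the class I enzymes showed no called change either. Of the subunits of the 4 corepressor complexes 30 were tested, of which 11 were higher and 19 lower, with a median difference of -0.06 and 0 called in either fit. In the Sin3 complex, 4 of 11 tested were higher and 7 lower (median -0.11). Its smallest p values belonged to Ing2 at -0.42 (SE 0.24) and Ing1 at 0.30 (SE 0.21), both encoding readers of methylated histone H3, and to Brms1 at 0.24 (SE 0.19). Ing2 had 95.9, 162 and 134 in siDNMT1 arrays against 129.8, 195 and 204 in siNT arrays, lower in 3 of 3 repeats with overlapping groups. The other tested probe sets were at 0.15 and -0.25 for Ing1 and at 0.06 for Brms1.

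In NuRD, the complex that joins deacetylation to nucleosome remodelling, 1 of 9 tested was higher and 8 lower (median -0.06). The remodelling ATPase gene Chd4 was at -0.19 (SE 0.17), Mta1, a scaffold gene, at -0.19 (SE 0.18), and Mbd3 at -0.10 (SE 0.17). The dimmer Chd4 probe sets were at 0.20 and 0.34. In CoREST 4 of 6 tested were higher and 2 lower (median 0.06). Rcor1, the scaffold gene of CoREST, had 153, 229 and 210.3 in siDNMT1 arrays against 215, 304 and 255 in siNT arrays, a difference of -0.38 (SE 0.21) with 3 of 3 repeats lower. Its other probe sets were at -0.08 and -0.39. Phf21a, a CoREST reader of unmethylated histone H3, was at -0.33 (SE 0.20) with groups that did not overlap, while its dimmer tested probe sets were at 0.25 and -0.08, and Rcor3 was at 0.30 (SE 0.21) with others at -0.34 to 0.54. In NCoR 2 of 4 tested were higher and 2 lower (median -0.03), with Tbl1xr1 at -0.28 (SE 0.19), Tbl1x at -0.06 (SE 0.19) and Coro2a at 0.06 (SE 0.26).

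Partners of class IIa enzymes are the MEF2 factors, the 14-3-3 proteins and the kinases that send these enzymes out of the nucleus. Of 17 listed, 16 were tested, of which 5 were higher and 11 lower (median -0.20), and 0 were called in either fit. Prkd2, a protein kinase D gene, had 115, 83.8 and 103 in siDNMT1 arrays against 58.5, 80.8 and 88.2 in siNT arrays, a difference of 0.39 (SE 0.22) with 3 of 3 repeats higher. Its other tested probe sets were at 0.31 to 0.55. Sik1, a salt-inducible kinase gene, had 65.5, 64.2 and 73.6 in siDNMT1 arrays against 82.1, 92.3 and 82.9 in siNT arrays. The groups did not overlap, and the difference was -0.32 (SE 0.19, paired limma adjusted p = 0.729). Sik3 was at -0.31 (SE 0.19), with its other tested probe sets at -0.29, 0.04 and 0.40.

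Histone acetyltransferases, the enzymes that oppose deacetylases, were lower in 8 of 9 tested genes and higher in 1 (median -0.09), with 0 called. Kat7 had 416, 453 and 433 in siDNMT1 arrays against 484, 580.2 and 575 in siNT arrays. Every siDNMT1 array was below every siNT array, and the difference was -0.33 (SE 0.15), with a limma adjusted p of 0.569 with the block and 0.9997 without it. A dimmer Kat7 probe set was at 0.12. Kat2b was at -0.29 (SE 0.21) and Hat1, which acetylates new histone H4, at -0.25 (SE 0.22). Of the 4 tested genes for binding partners of Dnmt1 and replication, 2 were higher and 2 lower, with E2f1 at -0.19 (SE 0.22), Pcna at -0.09 (SE 0.14) and Uhrf1 at 0.11 (SE 0.20).

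**Figure D4:**
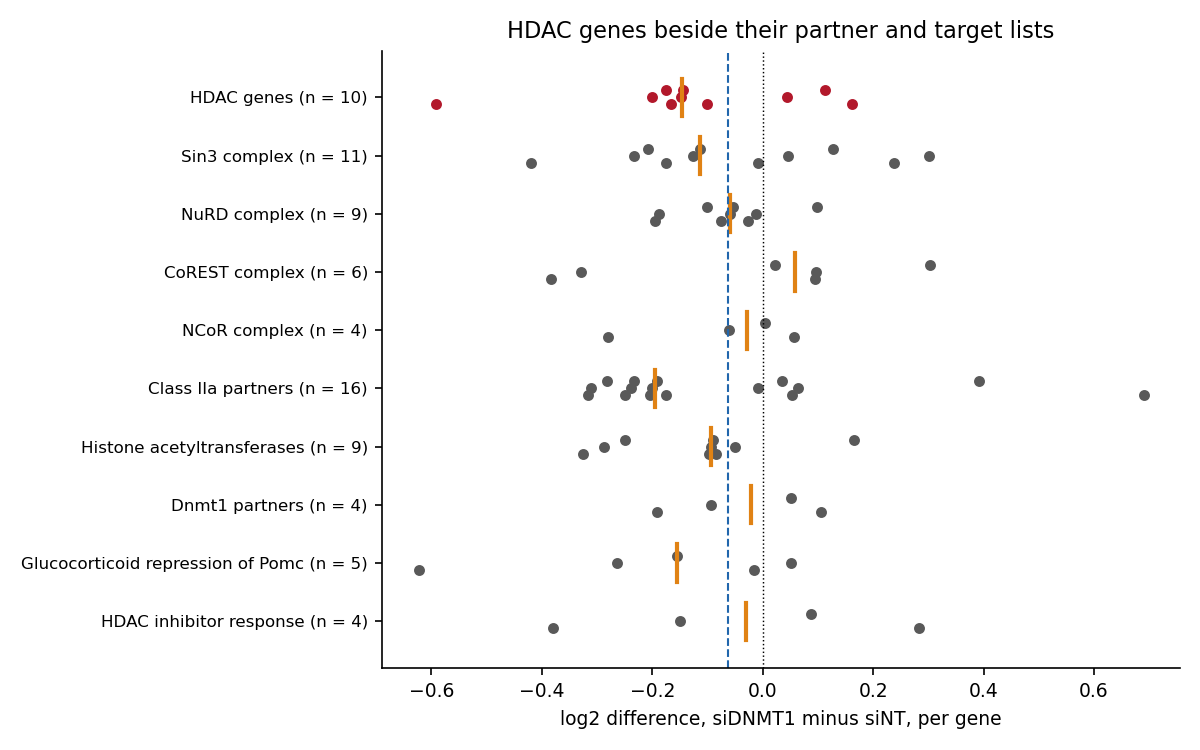
Log2 difference, siDNMT1 minus siNT (horizontal axis), of each tested gene on its brightest probe set, for the 10 histone deacetylase genes in red and for 9 lists of partner and target genes in grey, with list medians as orange bars. The dashed line is the median of all tested genes, -0.06, the dotted line is 0, and the list medians lie between -0.20 and 0.06.

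Among 5 genes tied to glucocorticoid repression of Pomc, where Hdac2 is known to act, 4 were lower and 1 higher (median -0.15), and 0 were called. Nr4a1, encoding the orphan receptor Nur77 that drives Pomc, had 353, 418 and 352 in siDNMT1 arrays against 447, 734 and 588 in siNT arrays. The groups did not overlap, and the difference was -0.62 (SE 0.20), with a limma adjusted p of 0.185 with the block and 0.9997 without it. Smarca4, encoding the remodelling ATPase Brg1, was at -0.26 (SE 0.17), with its dimmer probe set at 0.10. Pomc itself had 10470, 5576 and 9282 in siDNMT1 arrays against 10538, 6958 and 10191 in siNT arrays, a difference of -0.15 (SE 0.23).

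Among genes that deacetylase inhibitors are known to change, 4 of 5 listed were tested, 2 higher and 2 lower (median -0.03), with 0 called. Clu, encoding the chaperone clusterin, had 641, 583 and 554 in siDNMT1 arrays against 773, 911 and 649 in siNT arrays. It was below every siNT array in every siDNMT1 array, with a difference of -0.38 (SE 0.17) and a paired limma adjusted p of 0.486, and its other probe sets were at -0.20 to -0.40. Cdkn1a, the p21 cell cycle inhibitor, was at 0.09 (SE 0.14) and Gsn, an actin-severing protein gene, at -0.15 (SE 0.20). Of 9 tested proliferation genes 2 were higher and 7 lower (median -0.09), with Top2a at -0.36 (SE 0.23), Bub1 at -0.39 (SE 0.37) and Cdk1 at -0.12 (SE 0.16). Corticotroph markers divided evenly, 3 higher and 3 lower. Crhr1, the receptor of corticotropin-releasing hormone, was at -0.36 (SE 0.20) and Neurod1 at -0.35 (SE 0.20), and their second probe sets were at -0.82 and -0.33, while Pitx1 was at 0.13 (SE 0.17).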

How the data were processed

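Biotin-labelled total RNA of 6 AtT-20 cultures was read on 1 Affymetrix array each. The deposited table holds linear intensity per probe set, made with GCOS per the submitters' processing notes. For that software the version, settings and target signal were not given in the sources used here, nor were detection calls. Differences in scale between arrays were removed by bringing each array to a common median log2 value (scale factors 0.698 to 1.28). No 2 arrays held identical values. Precision is limited by the number of arrays.

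Of 45101 probe sets 64 were controls. The 27022 with a mean scaled signal of at least 16.8, the 40th percentile, were tested on log2(signal + 5.29), the pseudocount being the 20th percentile of deposited values, which understates changes of dim probe sets. Symbols came from a platform annotation (34945 probe sets with 1 symbol, 932 with several, 9160 with none). The test was limma 3.58.1 in R 4.3.3 (lmFit, eBayes with trend, two-sided, Benjamini-Hochberg, threshold 0.05), without and with the repeat number as a block. Taken as deviations from the group mean, arrays of the same number correlated at 0.173, 0.231 and 0.257, and other pairs at -0.179 to -0.0283, so the numbers pair the arrays. Scripts were tested on simulated data. The brightest probe set stood for a gene. Named were all members and Dnmt1, Hdac9, up to 3 genes of each list by smallest unadjusted p, and the 3 probe sets most like the leading member. Members and lists were chosen with earlier results of these data known. Promoter windows came from RefSeq. Alternatives covered scaling, pseudocount, brightness limit, variance trend, pairing, choice of probe set and each array or repeat left out.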

Additional observations from a re-analysis of the deposited data

How the results depend on the processing

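No member was called under any of the 20 alternatives. The smallest limma adjusted p of a member was 0.133, for Hdac11 in the paired fit without repeat 3. Hdac3, Hdac5, Hdac10 and Hdac11 kept a lower value throughout, and Hdac11 ran from -0.81 to -0.31, the smallest being the mean over both of its probe sets. At an unadjusted p under 0.05 there were 0 members with quantile normalisation, without scaling, without the variance trend, as means over probe sets, and without siDNMT1 array 2 or 3 or siNT array 1 or 2. The median of the members ran from -0.21 to -0.07 over the alternatives. Under trimmed mean scaling it was -0.09, with the median of all tested probe sets at 0.002.

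Over all probe sets, where 0 were called without the block, 1 was called with trimmed mean scaling, 1 with quantile normalisation, 2 without scaling, 1 with the stricter limit at the 60th percentile and 23 in the paired fit with the replicate block. Leaving out single arrays or repeats gave 0 to 261 calls, the highest in the paired fit without repeat 3. The block changed no call of a member. Hdac2 turned to 0.022 on its brightest probe set without a cross-hybridising suffix, and Hdac4 to 0.10 as the mean over its probe sets. With single arrays or repeats left out, Hdac1 ran from -0.0943 to 0.24, Hdac2 from -0.54 to 0.18, Hdac6 from -0.0149 to 0.26, Hdac7 from -0.35 to 0.14 and Hdac8 from -0.14 to 0.41. The Hdac7 value was above 0 without siDNMT1 array 2, and that of Hdac8 below 0 without siNT array 3. Hdac8 fell below the brightness limit without scaling, under the stricter limit and with some arrays left out, and Hdac3 has no probe set without such a suffix, so neither has a value there. The causes were not tested.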
